A study of Mus musculus with 2 samples.

Results

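The classical cadherins and protocadherins were followed as 1 gene family across the brain regions of 2 coronal sections. Members were all genes of the count matrices whose symbol is Cdh or Pcdh followed only by a number, with 1 gene of that pattern not analysed here, which gave 33 of 32285 genes. They comprised 5 type I and 13 type II classical cadherins, 5 other cadherins, 3 delta-1 and 4 delta-2 protocadherins, and 3 other protocadherins. Genes whose symbols hold further letters, among them the clustered protocadherins, were not members, so the groups counted here need not be complete.

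Cadherins are calcium-dependent adhesion proteins that span the cell membrane and bind partners on the neighbouring cell. Classical cadherins are tied to the actin cytoskeleton through catenins, and type I and type II members differ in the surface through which they bind, so that cells and synapses with matching cadherins adhere. The delta protocadherins have shorter or different cytoplasmic tails, several of which recruit the WAVE complex that builds branched actin, and members of both families are known for patterned expression that follows nuclei, layers and connected circuits of the brain.

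Each section came from the brain of 1 adult male mouse of the genotype ArcCreERT2::eYFPflx on a C57BL/6 background, in which the Arc promoter drives an inducible Cre recombinase that switches on a yellow fluorescent reporter. Both mice carried these alleles. The trained mouse had learned active place avoidance, in which an animal on a rotating arena avoids a zone where it receives a foot shock, and the untrained mouse had walked the same arena with the shock off. Both brains were taken after a memory retention test with the shock off, and coronal sections with the dorsal hippocampus on either side were profiled on Visium slides, where barcoded spots capture the RNA of several cells each. Whether the deposited labels and the study's own text name the sections the same way round could not be settled, so the sections are called trained-labelled and untrained-labelled.

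The section labelled trained held 4152 spots and 29515831 unique molecular identifiers (UMIs, counts of captured RNA molecules), and the section labelled untrained held 3738 spots and 59029131 UMIs. Median UMIs per spot were 5950.5 and 13766.5. The members together gave 19746 and 33345 UMIs, which is 669 and 565 counts per 1000000 UMIs (CPM). With 1 mouse and 1 section in each group there was no replicate, so no test was made, and all 95% intervals cover counting error only. Joint clustering of the spots, from which every Cdh and Pcdh gene had been removed, gave 20 regions named by marker sets, by leading genes and by position. Several regions differed in spot number between the sections, and the part of plane, trimming and clustering in this was not tested. Spots numbered 218 and 32 in the striatum, 123 and 45 in the reticular thalamus, and 2 and 182 in a ventral lateral region led by Cartpt, which left 19 regions for comparison. The 3 hippocampal cell layers scored highest for their own marker sets, with Spink8 and Fibcd1 among the leading genes of CA1, Cabp7 and Homer3 of CA2 and CA3, and Dsp and C1ql2 of the dentate gyrus. Barcodes of the slide grid were shared by 3448 spots, since these encode positions and not cells. CPM depend on the cells under a spot, and fewer expressing cells cannot be told apart from less RNA per cell.

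Regional values were compared for the 19 members with at least 200 UMIs in each section. A member was said to mark a region when its pooled CPM there was at least 2 times that of all other spots of the section, with at least 20 of its UMIs in the region. Of the 19 members, 5 marked the same region in both sections, beside 22.2% of all 10544 genes with as many UMIs. The 5 were Pcdh20, Cdh9, Pcdh1, Cdh6 and Cdh19. Their regions were the hippocampal cell layers for the first 3, the upper neocortex for Cdh6 and white matter for Cdh19. Within 1 section, marks were counted over the 19 compared regions. The counts were 12 members (33.3% of all genes) in the trained-labelled section and 10 members (28.4%) in the untrained-labelled section. The Cartpt region was thus left out, and Cdh4 and Pcdh17 marked only that region in the untrained-labelled section. The count depended on the fold chosen, with 17 of 19 members at 1.5-fold, beside 44.44% of all genes, and 3 of 19 at 3-fold, beside 9.987%.

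**Figure D1:**
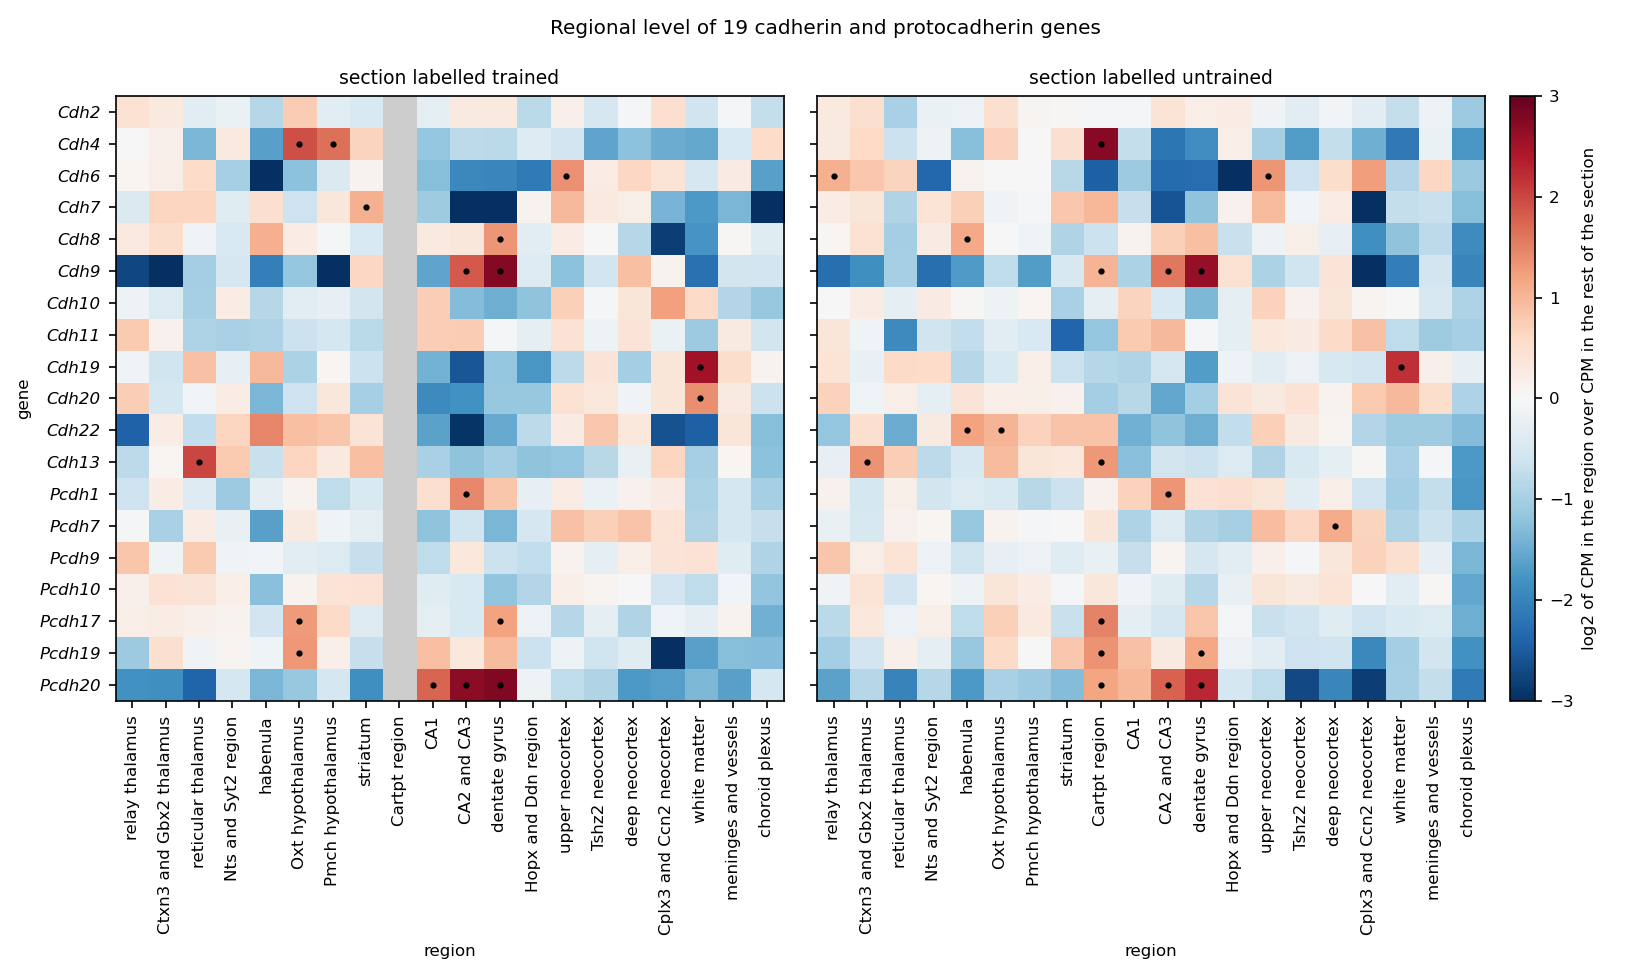
Each row is 1 of 19 members and each column a region, with the section labelled trained on the left. Colour gives the log2 of CPM in the region over CPM in the rest of the section, limited to the range shown, and black dots show regions that a member marked. The Cartpt region is grey on the left, where it held 2 spots. Pcdh20 and Cdh9 were highest in the hippocampal columns and Cdh19 in the white matter column of both panels.

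Pcdh20 and Cdh9 were the members with the strongest hippocampal pattern, and both peaked in the dentate gyrus of both sections. Pcdh20, a protocadherin outside the delta groups (ENSMUSG00000050505, chromosome 14, 88464743 to 88471396, minus strand, mm10), had 144 CPM (95% interval 124 to 166) in the dentate gyrus in the trained-labelled section and 108 CPM (98.1 to 119) in the untrained-labelled section. These levels were 6.84 times (5.77 to 8.07) and 4.76 times (4.26 to 5.31) those of the other spots. Cdh9, a type II cadherin known for its part in the synapses of dentate granule cells on CA3 neurons (ENSMUSG00000025370, chromosome 15, 16728756 to 16857094, plus strand), had 56.5 CPM (44.4 to 71.0) and 48.7 CPM (42.1 to 56.0) there. It stood 6.72 times (5.11 to 8.76) and 6.17 times (5.18 to 7.32) above the rest. The 2 dentate members are 2 of 19 members, beside 3.67% of all genes that marked the dentate gyrus in both sections.

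The promoter windows of these genes are shown because both genes had their highest level in the same region of both sections. The sequences are from RefSeq on GRCm38.p6, upstream of the annotated start, 5′ to 3′ on the strand of the gene, with matches to the E-box letters CANNTG in capitals. That motif reads the same on either strand. Promoter entries were found for 21 of the 33 members. The window of Cdh9 (chr15:16728665-16728755, plus strand) is cut to the 91 bases before the GENCODE start of the gene, and that of Pcdh20 (chr14:88471397-88471646, minus strand) has 250 bases.
Cdh9: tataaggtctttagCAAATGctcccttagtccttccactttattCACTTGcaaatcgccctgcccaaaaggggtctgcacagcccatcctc
Pcdh20: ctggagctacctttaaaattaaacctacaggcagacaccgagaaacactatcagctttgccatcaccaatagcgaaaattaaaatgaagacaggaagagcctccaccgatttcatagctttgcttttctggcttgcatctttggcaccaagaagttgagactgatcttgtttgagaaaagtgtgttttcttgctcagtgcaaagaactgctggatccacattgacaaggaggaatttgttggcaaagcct
The full 250 bases before the RefSeq start held 3 matches and 6 CG dinucleotides for Cdh9, and 0 matches and 3 CG dinucleotides for Pcdh20. Over 32851 promoter windows of that length, 66.22% held at least 1 match, 12.21% held 3 or more, and the median number of CG dinucleotides was 6. A match is a description of the letters only.

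Both genes also marked the layer of CA2 and CA3. Pcdh20 had 137 CPM (117 to 158) and 85.5 CPM (76.0 to 95.8) there, 6.396 and 3.423 times the rest. Cdh9 had 34.0 CPM (24.7 to 45.6) and 28.7 CPM (23.3 to 34.9), 3.591 and 3.003 times the rest. The genes parted in CA1. Pcdh20 kept 79.9 and 53.9 CPM in CA1, 3.35 times (2.72 to 4.11) and 1.99 times (1.70 to 2.33) the rest. Cdh9 had 3.63 and 5.72 CPM in CA1, from 5 and 19 UMIs. Its level in the dentate gyrus was 15.6 times (6.38 to 49.3) and 8.52 times (5.31 to 14.4) that in CA1.

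Pcdh1, a delta-1 protocadherin (ENSMUSG00000051375, chromosome 18, 38185914 to 38212053, minus strand), was the third member to mark CA2 and CA3. It had 78.8 CPM (64.2 to 95.7) and 83.2 CPM (73.8 to 93.4), which was 2.74 times (2.21 to 3.37) and 2.499 times (2.199 to 2.831) the rest. In all, 3 of 19 members marked CA2 and CA3 in both sections, beside 2.2% of all genes. The sides of the brain were also taken apart. Split at the midline, the 4 side and section values of Pcdh20 in the dentate gyrus ran from 4.71 to 7.58 times the rest, those of Cdh9 from 5.88 to 6.82, and those of Pcdh1 in CA2 and CA3 from 2.38 to 3.33. Those of Cdh9 in CA2 and CA3 ran from 2.79 to 5.97, the highest of them from 13 UMIs on the right of the trained-labelled section, which is over 1.5 times the fold of that whole section.

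The hippocampal cell layers were compared for all 19 members. The order of CA1, CA2 and CA3, and dentate gyrus was the same in both sections for 9 members, beside 41.9% of all genes, and the highest layer was the same for 13, beside 63.2%. The dentate gyrus was the highest layer of 5 members in both sections (31.2% of all genes), CA2 and CA3 of 4 (18.4%) and CA1 of 4 (13.7%). Several neighbours in these orders did not differ beyond counting error.

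All CA1 spots were pooled in these layer comparisons. With that pooling, the members highest in the dentate gyrus were Pcdh20, Cdh9, Cdh8, Pcdh17 and Pcdh19. Pcdh17, a delta-2 protocadherin, had 108 and 71.8 CPM in the dentate gyrus, 40.7 and 35.5 CPM in CA1, and 36.3 and 30.4 CPM in CA2 and CA3. Its dentate level was 2.65 times (1.93 to 3.68) and 2.02 times (1.63 to 2.53) that of CA1. Cdh8, a type II cadherin, had 46.6 and 25.3 CPM in the dentate gyrus against 24.0 and 15.3 CPM in CA1 and 24.7 and 22.9 CPM in CA2 and CA3. Its dentate level over that of CA2 and CA3 was 1.89 times (1.21 to 2.99) in the trained-labelled section and 1.11 times (0.817 to 1.503) in the other, where the 2 layers did not differ beyond counting error. Pcdh19, a delta-2 protocadherin known as an X-linked epilepsy gene, had nearly level values in the dentate gyrus (57.3 and 63.3 CPM) and CA1 (55.2 and 54.5 CPM), with a ratio of 1.04 (0.744 to 1.45) and 1.16 (0.958 to 1.42). CA2 and CA3 held less of it, at 37.9 and 36.8 CPM. For Pcdh20, the dentate gyrus and the layer of CA2 and CA3 differed by 1.05 times (0.851 to 1.30) in the trained-labelled section and by 1.26 times (1.09 to 1.47) in the untrained-labelled section.

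The members highest in CA2 and CA3 were Pcdh1, Pcdh9, Pcdh7 and Cdh11. Pcdh9, a delta-1 protocadherin, had 92.7 and 68.4 CPM there, 2.03 times (1.48 to 2.79) and 1.66 times (1.34 to 2.06) the level in CA1. Pcdh7, of the same group, had 47.1 and 41.2 CPM there and between 28.3 and 31.2 CPM in the other 2 layers. Cdh11, a type II cadherin also found in bone-forming cells, had 47.9 and 36.8 CPM in CA2 and CA3 and 46.5 and 33.1 CPM in CA1. That pair of layers did not differ beyond counting error, and the dentate gyrus stood below both, at 28.3 and 19.1 CPM.

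The members highest in CA1 were Cdh10, Pcdh10, Cdh6 and Cdh7, of which Cdh6 and Cdh7 had 14 or fewer UMIs in each layer. Cdh10, a type II cadherin whose protein binds those of Cdh6 and Cdh9, had 29.8 and 23.5 CPM in CA1, 7.73 and 11.3 CPM in CA2 and CA3, and 6.88 and 6.21 CPM in the dentate gyrus. Its order is the reverse of that of Cdh9, and CA1 held 41 and 78 of its UMIs. Pcdh10, a delta-2 protocadherin, had 85.0 and 66.8 CPM in CA1, 79.6 and 56.2 CPM in CA2 and CA3, and 48.9 and 41.0 CPM in the dentate gyrus, where only the dentate gyrus stood apart from the other layers beyond counting error. Cdh2, or N-cadherin, the type I cadherin of neural tissue and synapses, had 84.8 and 51.2 CPM in the dentate gyrus, 83.4 and 59.1 CPM in CA2 and CA3, and 58.1 and 43.9 CPM in CA1. The first 2 of these layers changed order between the sections with intervals that overlapped.

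**Figure D2:**
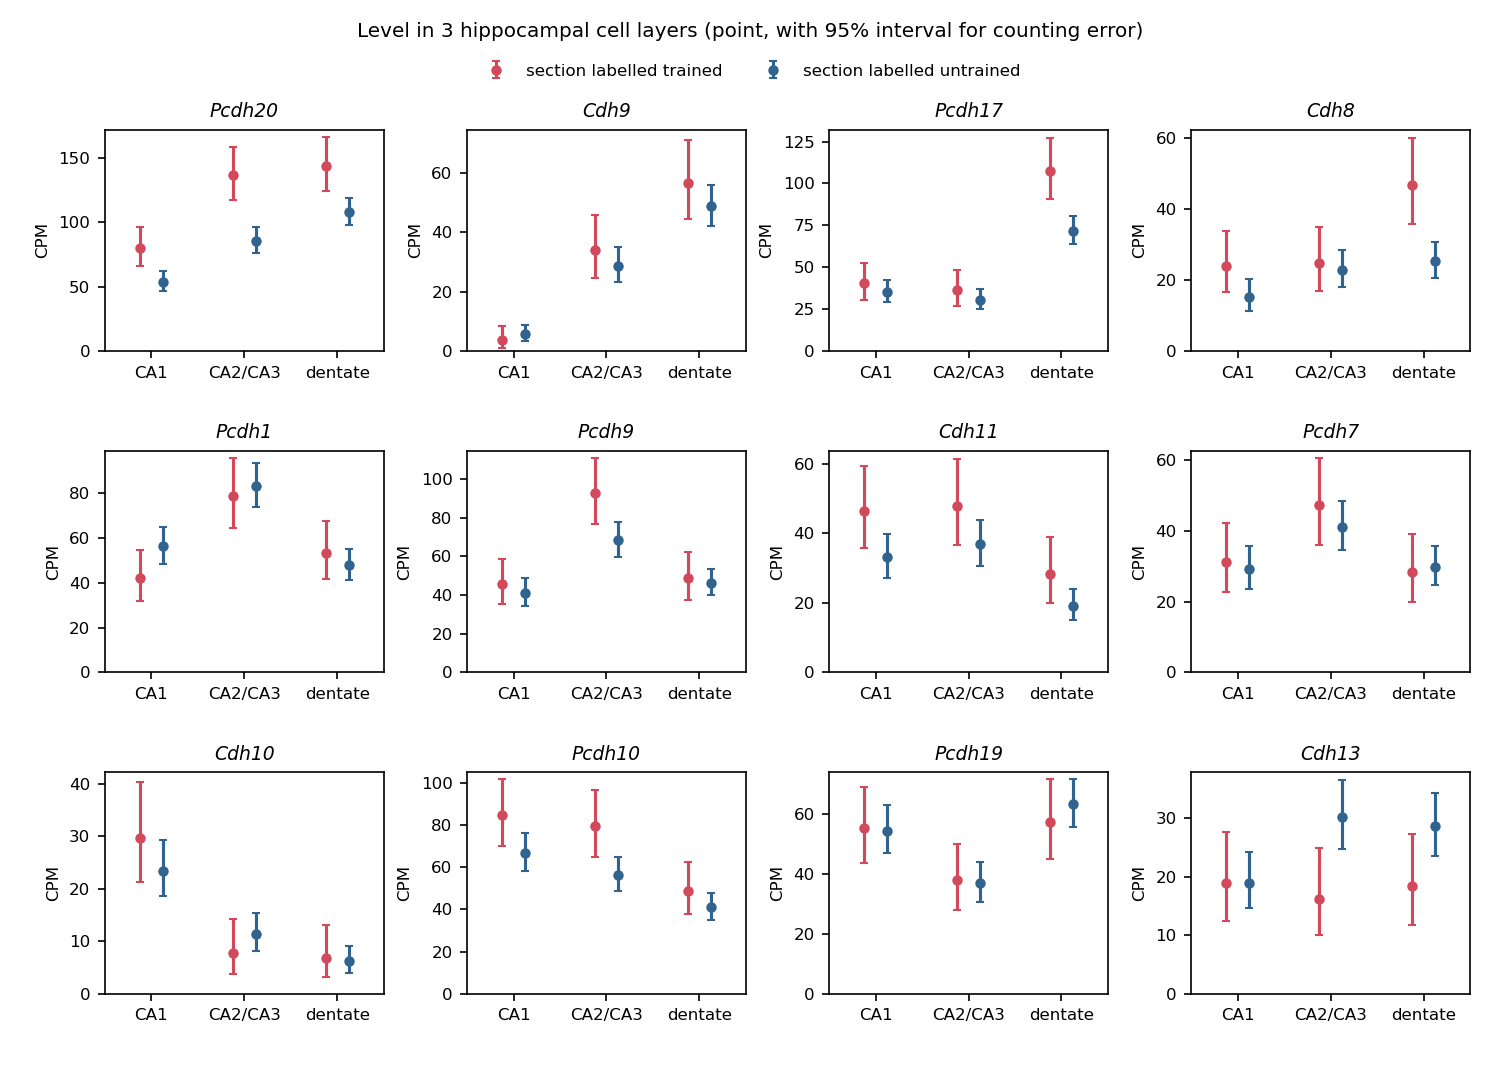
Level in CPM of 12 members in the 3 hippocampal cell layers, with the section labelled trained in red, the section labelled untrained in blue, and bars for the 95% interval for counting error. Pcdh20, Cdh9, Pcdh17 and Cdh8 were highest in the dentate gyrus, the second row in CA2 and CA3, and Cdh10 and Pcdh10 in CA1, in both sections. The layers of Cdh13 stood in different orders.

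CA1 spots fell into a smaller cluster of 53 and 54 spots and a larger one of 129 and 141 spots. The following genes were chosen after their values were seen. Cdh10 was higher in the smaller cluster, by 3.26 times (1.47 to 8.16) and 1.69 times (1.05 to 2.74), and so was Pcdh19, by 2.07 times (1.23 to 3.60) and 1.76 times (1.30 to 2.41). Cdh13 had a ratio of 0.789 (0.337 to 1.85) and 0.318 (0.162 to 0.585). Cdh2 differed between the clusters in the trained-labelled section, by 2.08 times (1.25 to 3.57), with 1.02 times (0.729 to 1.44) in the untrained-labelled section. In the smaller cluster alone Pcdh19 had 71.5 and 70.5 CPM, above its 57.3 and 63.3 CPM in the dentate gyrus. Cdh11 had 54.6 and 37.5 CPM in that cluster, against 47.9 and 36.8 CPM in CA2 and CA3. The highest layer of both members thus depended on pooling the CA1 clusters, and no interval was made for these differences.

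In the neocortex, Cdh6 marked the upper region in both sections (ENSMUSG00000039385, chromosome 15, 13028701 to 13173675, minus strand). Cdh6, a type II cadherin, had 18.9 CPM (14.4 to 24.4) and 15.1 CPM (11.9 to 18.9) there, 2.57 times (1.89 to 3.45) and 2.496 times (1.92 to 3.20) the rest. It was 1 of 19 members to mark that region in both sections, beside 1.77% of all genes. On the left side of the section labelled trained the fold was 1.93, from 19 UMIs. With the deeper section thinned to the depth of the shallower, the fold in the untrained-labelled section was 1.951. Cdh6 also marked the relay thalamus of the untrained-labelled section, at 2.087 times (1.589 to 2.708) the rest, from 70 UMIs. In the trained-labelled section the relay thalamus held Cdh6 at 1.044 times (0.587 to 1.731) the rest, from 16 UMIs. Cdh7 and Pcdh7 fell just short of a mark in the upper neocortex. Cdh7, a type II cadherin, had 13.1 and 11.8 CPM in the upper neocortex, 1.96 and 1.92 times the rest. In the trained-labelled section Cdh7 was highest in the striatum, which it marked with 14.2 CPM, 2.08 times the rest, from 31 UMIs. On the left side of that striatum Cdh7 was 2.71 times the rest, from 27 UMIs, and on the right 0.920 times, from 4 UMIs. The striatum of the untrained-labelled section held 3 of its UMIs. Pcdh7 had 119 and 94.3 CPM in the upper neocortex (1.83 and 1.89 times) and 115 and 105 CPM in the deep neocortex (1.81 and 2.15 times), so its upper and deep levels lay close together in each section.

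White matter was the region of Cdh19 and Cdh20, which peaked there in both sections. Cdh19, a type II cadherin known from the oligodendrocyte and Schwann cell lineages (ENSMUSG00000047216, chromosome 1, 110888326 to 110977584, minus strand), had 56.9 CPM (47.2 to 68.1) and 22.95 CPM (18.1 to 28.6) in white matter. It stood 5.78 times (4.62 to 7.19) and 4.57 times (3.51 to 5.90) above the rest, and was 1 of 19 members to mark white matter in both sections, beside 4.65% of all genes. Cdh20 had 30.8 CPM (23.8 to 39.3) and 26.2 CPM (21.03 to 32.2), 2.62 times (1.97 to 3.42) and 1.97 times (1.56 to 2.46) the rest, and so missed the mark in the untrained-labelled section. The relay thalamus held Cdh20 at 21.2 and 21.5 CPM, 1.68 and 1.62 times the rest.

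The level of Cdh19 in white matter was higher in the trained-labelled section by a log2 ratio of 1.31 (0.89 to 1.74). It was 1 of 13 members tested there that reached 2-fold, beside 2.1% of all genes, and 3 of 13 reached 1.5-fold in either direction, beside 17.1%. Outside white matter Cdh19 was also higher in the trained-labelled section, with 9.86 and 5.02 CPM. The summed level of 6 oligodendrocyte markers in white matter was 39580 and 33700 CPM, a ratio of 1.17 with 4 of the 6 higher in the trained-labelled section, and that of 5 markers of oligodendrocyte precursors was 855 and 702 CPM, a ratio of 1.22 with 5 of 5 higher. The part of cell composition and of plane in the difference was not tested.

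**Figure D3:**
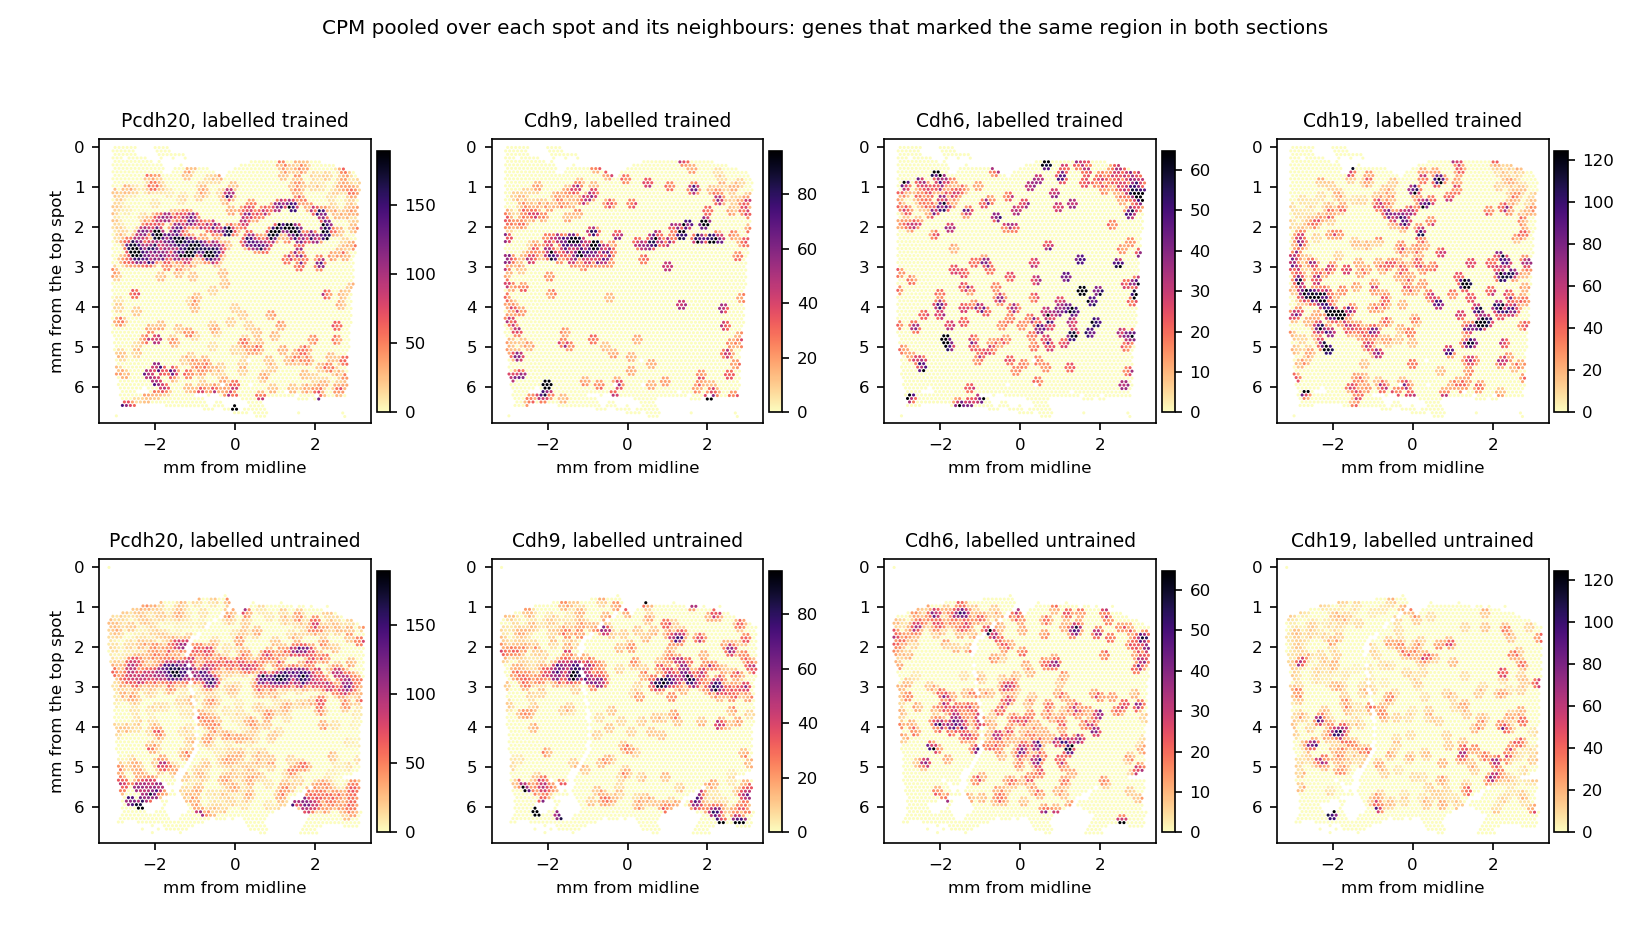
Maps of 4 members that marked the same region in both sections, with the section labelled trained in the upper row. Axes give mm from the midline and mm from the uppermost spot, and colour gives CPM pooled over each spot and its direct neighbours, on 1 scale per gene that ends at its highest values. Pcdh20 and Cdh9 follow the bands of the hippocampus on either side, Cdh6 lies in the upper cortex and scattered in the thalamus, and Cdh19 lies along the fibre tracts.

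In the diencephalon several members peaked in the same nucleus group without reaching the fold or the count for a mark in both sections. Pcdh9 peaked in the relay thalamus of both, with 128 and 108 CPM, 1.77 times (1.54 to 2.03) and 1.78 times (1.63 to 1.95) the rest. Cdh22, a type II cadherin, peaked in the habenula, with 46.1 CPM (27.3 to 72.8) and 33.6 CPM (24.9 to 44.3), 2.77 and 2.32 times the rest, but with 18 UMIs in the trained-labelled section. Cdh8 was also high in the habenula, with 41.0 and 30.9 CPM, 2.09 and 2.21 times the rest, from 16 and 46 UMIs. Among the 19 compared regions, Cdh2 and Cdh4 peaked in the hypothalamic region led by Oxt and Avp. Cdh2 had 113 and 61.0 CPM there (1.69 and 1.39 times). Cdh4, or R-cadherin, a type I cadherin, had 25.5 CPM (18.7 to 33.9) and 17.3 CPM (13.4 to 21.9), 3.81 and 1.61 times the rest. It also marked the region led by Pmch in the trained-labelled section, with 23.0 CPM from 25 UMIs, 3.16 times the rest. In the untrained-labelled section the Pmch region had 11.2 CPM of Cdh4, 0.999 times the rest. Pcdh17 and Pcdh19 were highest in the region led by Oxt in the trained-labelled section, with 109.6 and 69.5 CPM, 2.42 and 2.45 times the rest. In the other section they had 67.1 and 44.5 CPM in that region (1.643 and 1.495 times). Pcdh10 had no single peak, with 143.8 CPM in the striatum and 143.7 CPM in the Pmch hypothalamus of the trained-labelled section, and 93.6 CPM in the Ctxn3 and Gbx2 thalamus and 92.5 CPM in the deep neocortex of the other. In total 9 of 19 members had their highest level in the same region of both sections, beside 41.9% of all genes.

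Among the 19 compared regions, Cdh13 was highest in a different part of the thalamus in each section. Cdh13, or T-cadherin, is held in the membrane by a lipid anchor and has no cytoplasmic domain (ENSMUSG00000031841, chromosome 8, 118283733 to 119324921, plus strand). In the trained-labelled section it was highest in the reticular thalamus, with 133 CPM (111 to 158), 4.04 times (3.33 to 4.86) the rest, against 71.6 CPM (51.1 to 97.4) and 1.66 times in the untrained-labelled section. In the untrained-labelled section it was highest among these regions in the thalamic region led by Ctxn3 and Gbx2, level with the 98.3 CPM of the Cartpt region that was not compared, with 98.2 CPM (89.5 to 108), 2.54 times (2.30 to 2.81) the rest, against 37.6 CPM (30.4 to 45.9) and 1.04 times in the trained-labelled section. The reticular region held 123 and 45 spots, and the Ctxn3 and Gbx2 region 350 and 279. The part of the plane of section was not tested.

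CA1 was marked by 0 members in both sections, beside 2.5% of all genes, and so were the habenula (1.61%), the regions led by Oxt (1.66%) and Pmch (0.522%), the relay thalamus (1.82%), the Ctxn3 and Gbx2 thalamus (0.996%), the reticular thalamus (0.522%) and the Nts and Syt2 region (0.285%). The same held for the striatum (0.322%), the hippocampal region led by Hopx and Ddn (0.171%), the neocortical regions led by Tshz2 (0.322%) and by Cplx3 and Ccn2 (0.465%), the deep neocortex (0.967%), the meninges and vessels (1.75%) and the choroid plexus (3.65%). The rest of the untrained-labelled section included 182 spots of the Cartpt region, against 2 in the other, so the folds have unlike denominators. Several pairs of a member and a region missed the fold only in the untrained-labelled section. They include Pcdh20 in CA1, Cdh8 in the dentate gyrus, Cdh20 in white matter, and Cdh4, Pcdh17 and Pcdh19 in the region led by Oxt. Others missed it only in the trained-labelled section, such as Cdh6 in the relay thalamus, Cdh13 in the Ctxn3 and Gbx2 thalamus and Pcdh7 in the deep neocortex. The part of the denominators was not tested. With only the 15 regions of like spot number, chosen after seeing the data, 9 of 19 members marked a region in both sections (19.73% of all genes).

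The Cartpt region, at the ventral lateral edge on both sides of the section labelled untrained, was marked by 6 of 19 members in that section, beside 1.93% of all genes. The 6 were Cdh4, Pcdh17, Pcdh19, Cdh13, Pcdh20 and Cdh9. Cdh4 led with 54.7 CPM (47.5 to 62.6), 6.68 times (5.64 to 7.89) the rest, the highest of its levels in any region of that section. Pcdh17 had 106 CPM, Cdh13 98.3 CPM, Pcdh19 71.3 CPM, Pcdh20 60.2 CPM and Cdh9 20.3 CPM, from 2.79 times the rest for Pcdh17 to 2.03 times for Cdh9. The 2 Cartpt spots in the trained-labelled section gave no comparison.

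Members below 200 UMIs in either section numbered 14, and their totals ran from 0 to 170 UMIs in the trained-labelled section and from 1 to 318 in the untrained-labelled section. Those named here were chosen after their values were seen. Cdh5, or VE-cadherin, the adhesion protein of endothelial junctions, had 136 and 266 UMIs and was highest in the meninges and vessels, with 15.9 CPM (7.92 to 28.4) and 18.8 CPM (12.8 to 26.7). The summed level of 6 endothelial markers there was 591 and 602 CPM, 2.69 and 2.89 times the rest. Cdh3, or P-cadherin, had 14 and 66 UMIs, of which 3 and 36 lay in the choroid plexus. Cdh12, a type II cadherin, had 101 and 157 UMIs and stood highest in the upper neocortex, with 9.93 CPM (6.75 to 14.1) and 6.59 CPM (4.56 to 9.20), 3.74 and 2.88 times the rest. Pcdh18 had 170 and 318 UMIs, Pcdh15 155 and 174, Cdh18 64 and 104, Cdh24 45 and 213, Cdh15 20 and 71, and Cdh26 10 and 55. Cdh1, Cdh16, Cdh17 and Pcdh12 had between 0 and 10 UMIs in a section, and the counts allow no statement on where they lie.

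Cdh23, known with Pcdh15 as a part of the tip links of inner ear hair cells, had 15 UMIs in the trained-labelled section and 181 in the untrained-labelled section. In the latter, 67 UMIs lay in the region led by Nts and Syt2, with 30.7 CPM (23.8 to 39.0), 15.3 times (11.1 to 20.9) the rest. They formed a patch on either side, in 20 of 80 spots of that region on the left and 17 of 105 on the right. In the trained-labelled section, 1 of 418 spots of that region held a UMI. The part of the plane of section was not tested.

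**Figure D4:**
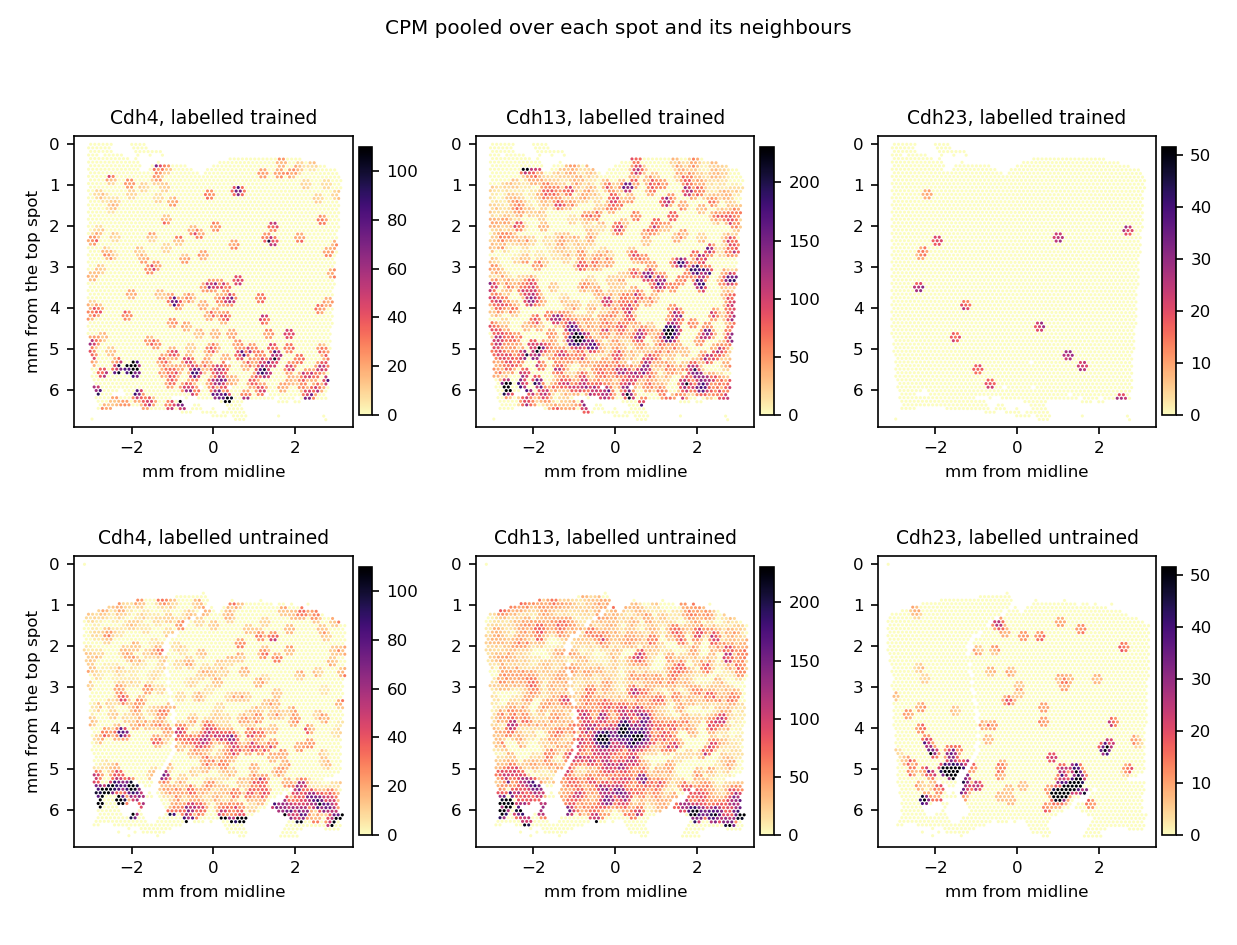
Maps of Cdh4, Cdh13 and Cdh23 drawn as above, with the section labelled trained in the upper row and CPM pooled over each spot and its direct neighbours. In the lower row Cdh4 fills ventral lateral patches, Cdh13 the thalamic midline, and Cdh23 a patch on either side below the thalamus. In the upper row Cdh13 is high in patches on either side, and Cdh23 has 15 scattered UMIs.

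The agreement of each regional pattern was described by Pearson's r of log2(CPM + 1) over the 19 regions. These r values are descriptions, since the regions of a section share a library and a depth. The median over the 19 members was 0.707, with a range from 0.523 to 0.925, beside 0.634 over all genes. An r of at least 0.7 was reached by 10 members, beside 41.64% of all genes. Pcdh7 had the highest value, 0.925, followed by Pcdh9 (0.866), Pcdh20 (0.862), Pcdh17 (0.858) and Cdh22 (0.821). Cdh2 had the lowest, 0.523, and Cdh6 0.588. Cdh9 stood at 0.649 and Cdh19 at 0.628, although both marked their regions in both sections.

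The left and right sides of 1 section were compared in the same way. Over 16 regions, the median r between sides was 0.603 within the section labelled trained and 0.784 within the section labelled untrained, beside 0.544 and 0.667 over all genes. Between sections it was 0.768 for the left sides and 0.721 for the right sides. These medians for the left and for the right sides lay between those of the 2 pairs of sides within a section. The members' median between whole sections rests on more UMIs and on 19 regions, so it is not a like measure. The range within the section labelled trained ran from 0.196 for Cdh7 to 0.851 for Cdh22.

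**Figure D5:**
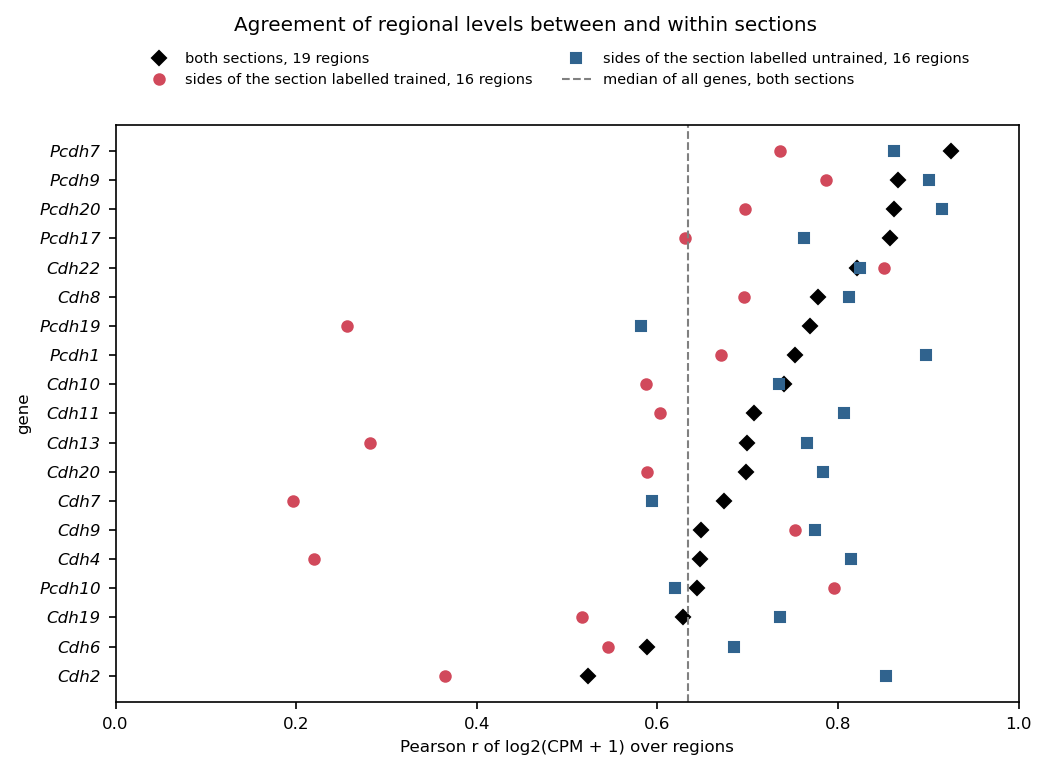
Pearson r of regional levels for each of 19 members, ordered by the value between sections (black diamonds). Red circles and blue squares give r between the left and right sides of the sections labelled trained and untrained, and the dashed line gives the median of all genes between sections, 0.634. Pcdh7 stood highest at 0.925 and Cdh2 lowest at 0.523.

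Regional patterns were also compared between members, by r over the 19 regions within each section, as a description without pairs of other genes beside it. Of 171 pairs, those with the highest values in both sections were Cdh7 and Cdh22 (0.628 and 0.649) and Pcdh1 and Pcdh20 (0.618 and 0.596). Cdh9 and Pcdh20 had 0.521 and 0.688. Most pairs were less alike. For each pair the lower of its r values was taken, and the median of these was 0.0075, with 0 pairs at 0.8 or more. Both values were below 0 for 52 pairs, such as Cdh20 and Pcdh20 (-0.595 and -0.687).

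Levels in the 3 hippocampal layers together were then set side by side between the labels. Of 13 members with enough UMIs, 0 differed by 1.5-fold or more, beside 16.7% of 10129 genes. No test was made with 1 section in each group, and other settings gave between 0 and 3 members. Log2 ratios of the trained-labelled over the untrained-labelled section ran from -0.54 for Cdh13 (17.8 and 26.1 CPM) to 0.56 for Cdh8 (31.7 and 21.5 CPM). The median was 0.26, against 0.10 over all genes, and 10 of 13 ratios were above 0, beside 60.4%. Intervals lay above 0 for 7 members and below 0 for 1. Cdh2 had 75.1 and 51.5 CPM, a log2 ratio of 0.55 (0.34 to 0.75), and Pcdh20 had 119 and 84.2 CPM, a ratio of 0.50 (0.34 to 0.67). Pcdh1 (57.8 and 61.8 CPM), Pcdh19 (50.3 and 52.1 CPM), Cdh9 (30.9 and 29.1 CPM) and Pcdh7 (35.4 and 33.2 CPM) had ratios between -0.09 and 0.10 with intervals that included 0.

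Single layers showed larger ratios for a few members. In the dentate gyrus 4 of 12 members differed by 1.5-fold or more, beside 23.8% of genes, in CA2 and CA3 2 of 12 (19.6%), and in CA1 1 of 12 (18.3%). Those in the dentate gyrus were Cdh8 with a log2 ratio of 0.88 (0.40 to 1.35), Cdh2 with 0.73 (0.38 to 1.07), Pcdh17 with 0.59 (0.28 to 0.88) and Cdh13 with -0.62 (-1.34 to 0.0045). In CA2 and CA3 they were Pcdh20 with 0.68 (0.40 to 0.95) and Cdh13 with -0.87 (-1.65 to -0.21). In CA1 it was Cdh8 with 0.65 (-0.034 to 1.30). At 2-fold or more higher in the trained-labelled section there were 0 of 12 members in the dentate gyrus (4.05% of genes), in CA2 and CA3 (2.79%) and in CA1 (2.49%). The labels, the animals, the planes and the libraries cannot be told apart in these values.

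Binding partners inside the cell were given for comparison. Of 7 catenin genes, which link classical cadherins to actin, 6 had enough UMIs, 3 peaked in the same region of both sections and 2 marked a region in both. Ctnnb1, or beta-catenin, peaked in the Ctxn3 and Gbx2 thalamus with 592 and 457 CPM. Ctnna1, or alpha-E-catenin, marked the choroid plexus with 139 and 170 CPM, 3.004 and 3.47 times the rest. Jup, or plakoglobin, had its hippocampal level lower in the trained-labelled section by 1.5-fold or more, the 1 catenin past that fold, with a log2 ratio of -0.98. Of 9 large cadherins of the Fat, Dachsous and Celsr groups, 4 had enough UMIs, 1 peaked in the same region and 0 marked a region in both sections. Celsr2 had an r between sections of 0.936. Of 10 partners of the delta protocadherins, WAVE complex members and nectins, all had enough UMIs, 6 peaked in the same region and 2 marked a region in both. Wasf1, the neuronal WAVE protein, marked all 3 hippocampal layers. Nectin3, which is also in the marker list used to name the region, had 81.1 and 48.4 CPM in CA2 and CA3, 5.94 and 4.33 times the rest. In the hippocampal layers 2 of these 10 genes were past 1.5-fold higher in the trained-labelled section (Abi1 with a log2 ratio of 0.84 and Nectin3 with 0.61) and 1 lower (Nectin1 with -0.92). The median r between sections was 0.870 for the catenins, 0.761 for the large cadherins and 0.856 for the actin partners and nectins.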

How the data were processed

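Visium libraries of 2 coronal sections were counted by the authors with Space Ranger 2.0.0 against the 10x mouse reference on mm10, after trimming with TrimGalore. The deposited matrices hold counts of UMIs per gene and spot, unnormalised. The deposited spatial tables hold a score by the authors, Moran's I, which was not used in any comparison, and counts by the authors, which matched the matrix for every member they list. Images were not used here. Annotation was GENCODE vM21 on the same build.

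Spots under 500 UMIs (194 and 114) were left out of the regions. Clustering used 946 genes that were variable in both sections (3000 in each), without any Cdh, Pcdh, catenin or partner gene and without mitochondrial, ribosomal, haemoglobin and immediate early genes. Counts were scaled to 10000, log-transformed, scaled within a section with a cap of 10 standard deviations, and reduced to 30 components. A graph of 15 neighbours was divided by Leiden at resolution 1.5 and seed 7 into 23 clusters, joined into 20 regions. Region names and joins were set after the maps were seen. UMIs were pooled over a region and scaled to CPM. Intervals are exact Poisson for a CPM and exact conditional binomial for a ratio. Ratios between sections used a pseudocount of 0.5 UMI, and r a pseudocount of 1 CPM. Spots are not replicates, so nothing was tested. The scripts were tested on simulated data. Strand-specific counting is not given in the sources used here, and of the 19 members 13 overlap an annotated gene on the opposite strand, 7 one on the same strand and 4 neither, so counts of the overlapping genes are uncertain.

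A member was named with regional values when it had at least 200 UMIs in each section, and the other members by their totals, except a few whose regional values are given and which were chosen after these were seen. Members, lists and thresholds were chosen with earlier results of these data known. Versions were leidenalg 0.10.2, igraph 0.11.9, scanpy 1.11.5, scipy 1.17.1 and matplotlib 3.10.9, under Python 3.11.15 with numpy 2.4.6, scikit-learn 1.9.0, pandas 2.3.3 and anndata 0.12.19.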

Additional observations from a re-analysis of the deposited data

How the results depend on the processing

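Shares in parentheses are those of all genes tested under the same setting. The number of members that marked a region in both sections, 5 of 19 as reported (22.2%), was 17 of 19 at 1.5-fold (44.44%), 3 of 19 at 3-fold (9.987%), 2 of 13 with at least 400 UMIs of a gene in each section (20.65%) and 3 of 19 on the right side alone (16.59%). With only the 15 regions whose spot numbers differ by at most 2 times, chosen after seeing the data, it was 9 of 19 (19.73%). The number with the same peak region, 9 of 19 as reported (41.9%), was 5 of 19 with each spot weighted equally (34.79%) and 5 of 13 with at least 400 UMIs (43.15%). The members' share of same peaks was above that of all genes as reported and below it under these last 2 settings, with the deeper section thinned (6 of 18, 36.89%) and with spots assigned by marker sets (8 of 19, 45.57%). The share of marks turned the same way with at least 400 UMIs and on the right side. The median r was 0.770 with at least 400 UMIs (0.677 over all genes), 0.759 with a pseudocount of 10 CPM (0.653) and 0.767 in regions of like size (0.676). Members past 1.5-fold in the hippocampal layers numbered 0 of 13 as reported (16.7%). They numbered 1 of 13 without mitochondrially encoded genes in the totals (15.3%), with each spot weighted equally (15.93%) and on the left side (16.44%), 1 of 14 with at least 100 UMIs (17.34%) and 1 of 12 on the right side (21.63%). They numbered 2 of 13 with the deeper section thinned to the depth of the shallower (16.6%), and 3 of 19 with spots assigned by marker sets (15.07%), where the members' share was above that of all genes. Why these values moved was not tested. Fewer genes were tested at 400 UMIs. For the 7 pairs of a gene and a region named as marks in both sections, 98 folds were recomputed, of which 96 stayed at 2-fold or more and the lowest was 1.93. All 98 kept the assignment of spots to regions. They do not cover the settings that redrew the regions, by another clustering resolution or by marker sets. No paired analysis was possible because each group holds 1 section. Depth limits the shallower section, where 14 UMIs of Cdh3 or 15 of Cdh23 allow no regional pattern to be read.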

Other observations

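In the untrained-labelled section, 28 spots held at least 2 UMIs of Cdh23. Among the genes with at least 20 UMIs in these spots and a high ratio to all other spots of that section were Nts (287 and 14.2 CPM, 20.2 times), C130021I20Rik (45.1 and 2.25 CPM, 20.1 times), Barhl2 (27.4 and 1.42 CPM, 19.2 times) and Lmx1a (30.1 and 2.57 CPM, 11.7 times). Over the whole sections labelled trained and untrained, Barhl2 had 23 and 103 UMIs, Lmx1a 20 and 172, and C130021I20Rik 5 and 164. The spots were chosen by their Cdh23 counts, so these ratios are a description of those spots.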
